A study of Homo sapiens with 6 samples.

Results

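Aminoacyl-tRNA synthetases are the enzymes that join each amino acid to its own tRNA, the step that fixes the genetic code. Most amino acids are served by a pair of nuclear genes, of which the first encodes the cytosolic enzyme and the second an enzyme imported into mitochondria. GARS1 (glycine) and KARS1 (lysine) each supply both compartments from a single gene, and glutaminyl-tRNA in mitochondria is made by an indirect route, so QARS1 has no mitochondrial counterpart. Several cytosolic enzymes sit in a multisynthetase complex held together by the scaffold proteins AIMP1, AIMP2 and EEF1E1. The transcription factor ATF4, which is translated when amino acids run short or the endoplasmic reticulum is stressed, is known to drive many cytosolic synthetase genes. Members were chosen by gene symbol in the deposited table, which gave 37 of 18056 genes: 18 cytosolic enzymes or subunits, 2 shared by both compartments and 17 mitochondrial enzymes.

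The libraries came from forebrain organoids of dorsal type, grown from DYR0100, an established human induced pluripotent stem cell line labelled wild type. In 3 libraries the organoids had received vehicle, and in 3 they had received Aβ42, the aggregation-prone amyloid-β peptide, at 5 µM for 6 days. A single line in a single labelled batch was used, the age of the organoids is not stated, and the libraries are described as independent biological replicates. Bulk RNA was measured, so fewer cells of a type and less RNA per cell cannot be told apart.

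Each library held 16465390 to 16742958 estimated counts. All 37 synthetases passed the filter on low counts, with 71 to 4644 estimated counts per gene and library. The forebrain factor LHX2 was at 155.6 ± 3.32 CPM (counts scaled to the library total) in vehicle and 153.8 ± 8.09 CPM with Aβ42. The dorsal factor EMX1 was at 34.6 ± 0.61 and 38.4 ± 3.87 CPM (mean ± SD, n = 3 each). Of 6 forebrain markers 4 had a log2 fold change above 0 and 2 below. None had an unadjusted edgeR p-value under 0.05, where 23.9% of all genes did. The lowest log2 fold change was that of OTX2, at 11.1 ± 4.61 and 7.0 ± 4.79 CPM, which is also listed below as a choroid plexus marker. Of 10 microglia markers none passed the filter, and TREM2, TYROBP, C1QA, C1QB and C1QC were at 0 in every library. Summed microglia markers reached 0.42 to 0.98 CPM in vehicle and 0.49 to 0.84 CPM with Aβ42. The 2 libraries numbered 2 shared part of their deviation from the rest of their groups (correlation 0.388 over 12186 genes). Aβ42 replicate 2 had the lowest quality weight (0.395, against 1 to 1.63 in the other libraries), so results are also given with the replicate number as a block and without that library where a call changes.

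Cytosolic synthetases were the more abundant set in every library. Levels between genes were compared in TPM, a share of transcripts that allows for their length. The median cytosolic enzyme was at 123 to 132 TPM in the vehicle libraries and the median mitochondrial enzyme at 19.5 to 19.9 TPM, while the median tested gene averaged 25.5 TPM over the 6 libraries. Together the 37 genes took 0.324% to 0.338% of all TPM.

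SARS1, the seryl-tRNA synthetase, had the highest level, at 326.6 ± 8.83 TPM in vehicle, followed by GARS1 at 279.8 ± 8.18 TPM and NARS1, the asparaginyl enzyme, at 204.5 ± 1.46 TPM. Below YARS1 (tyrosyl, 190.5 ± 6.80 TPM) came TARS1 (169.8 ± 2.79 TPM), KARS1 (164.1 ± 3.67 TPM) and AARS1 (163.7 ± 5.78 TPM). KARS1 and AARS1 differed by less than their own spread. The lowest cytosolic enzyme was VARS1 (valyl) at 55.7 ± 1.58 TPM. Among mitochondrial enzymes the arginyl RARS2 (80.6 ± 4.09 TPM) and the isoleucyl IARS2 (79.6 ± 1.64 TPM) stood highest and above 5 cytosolic enzymes, and the prolyl PARS2 stood lowest (6.95 ± 0.32 TPM). Cytosolic phenylalanyl-tRNA synthetase is built from equal numbers of FARSA and FARSB subunits, yet FARSB (133.9 ± 7.74 TPM) was above FARSA (61.4 ± 2.95 TPM) in all 6 libraries. In vehicle replicates 1 to 3 FARSB exceeded FARSA by a factor of 2.09, 2.12 and 2.33. In the Aβ42 replicates the factor was 2.53, 1.74 and 2.33, overlapping vehicle.

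**Figure D1:**
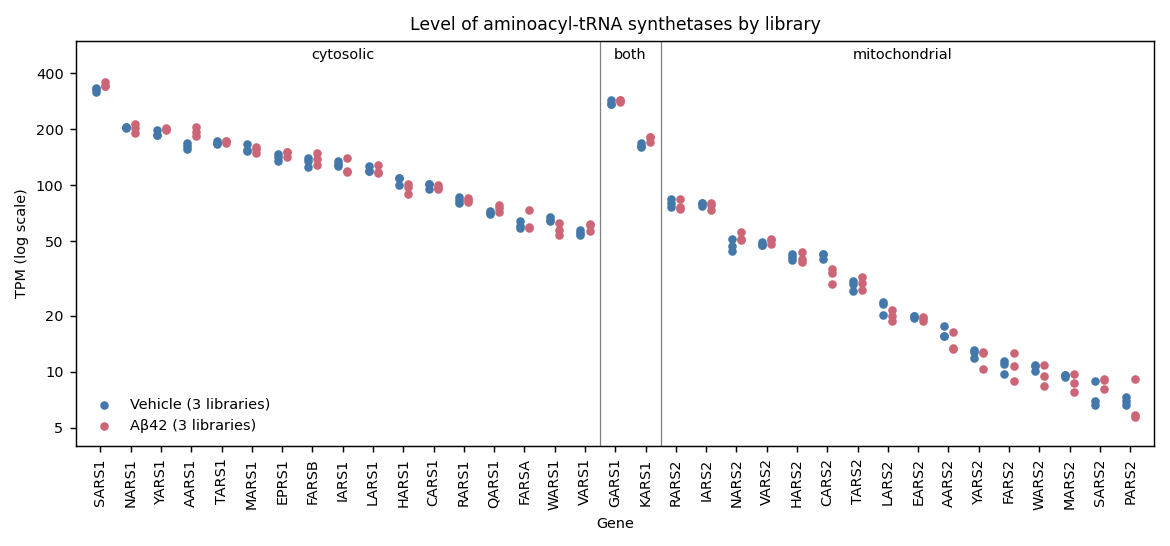
TPM (log scale) of the synthetases reported by name, 1 point per library, with vehicle in blue and Aβ42 in red, grouped by compartment and ordered by mean level. Cytosolic and shared enzymes run from SARS1 down to VARS1, most mitochondrial enzymes lie lower, and the groups of libraries lie close together for nearly every gene.

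The comparison of Aβ42 with vehicle asks whether the charging enzymes differ between exposed and unexposed organoids. Differences were small, and AARS1 (alanyl), KARS1 and CARS2 (mitochondrial cysteinyl) had the lowest p-values. By edgeR's quasi-likelihood test no synthetase had an adjusted p-value under 0.05, nor did any other of the 13842 genes tested (0% called, smallest adjusted p-value 0.0684). Of the 37 log2 fold changes, 22 were smaller than 0.1 in size, 12 lay between 0.1 and 0.2, and 3 were larger. Standard errors (SE) ran from 0.05 to 0.19.

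An unadjusted p-value under 0.05 was reached by 7 synthetases, 6 higher and 1 lower with Aβ42. That is 18.9% of the family, against 23.9% of all genes tested, of which 12.4% were higher and 11.5% lower. The 6 higher members were all cytosolic or shared enzymes, 30% of those 20, and the lower one was mitochondrial. On the log2(TPM + 1) scale 5 genes reached that level, 2 higher and 3 lower, where 23.8% of all genes did and 7.7% were higher against 16.1% lower. With vehicle replicate 2 left out the count was 3 (background 13.7%), with vehicle replicate 3 left out 4 (17.6%), with Aβ42 replicate 3 left out 4 (13.4%) and with Aβ42 replicate 2 left out 11 (37%).

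The CPM values of the groups did not overlap in 8 synthetases, 21.6% of the family, against 27% of all genes. These were AARS1, KARS1, SARS1, YARS1, VARS2 and NARS2 above vehicle, and WARS1 and CARS2 below. Comparing fewer libraries leaves more genes without overlap: 21 synthetases without vehicle replicate 1 (background 41.3%), 18 without Aβ42 replicate 2 (53.5%) and 13 without Aβ42 replicate 3 (32%). In TPM 6 of the 8 remained, VARS2 and NARS2 being those that overlapped.

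With the replicate block 3 synthetases passed, AARS1 and KARS1 higher and CARS2 lower, which is 8.11% of the family against 14.2% of all genes (7.12% higher and 7.05% lower). Without Aβ42 replicate 2 there were 6 (AARS1, KARS1, VARS1 and SARS1 higher, CARS2 and AARS2 lower), where 23.1% of all genes passed.

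**Figure D2:**
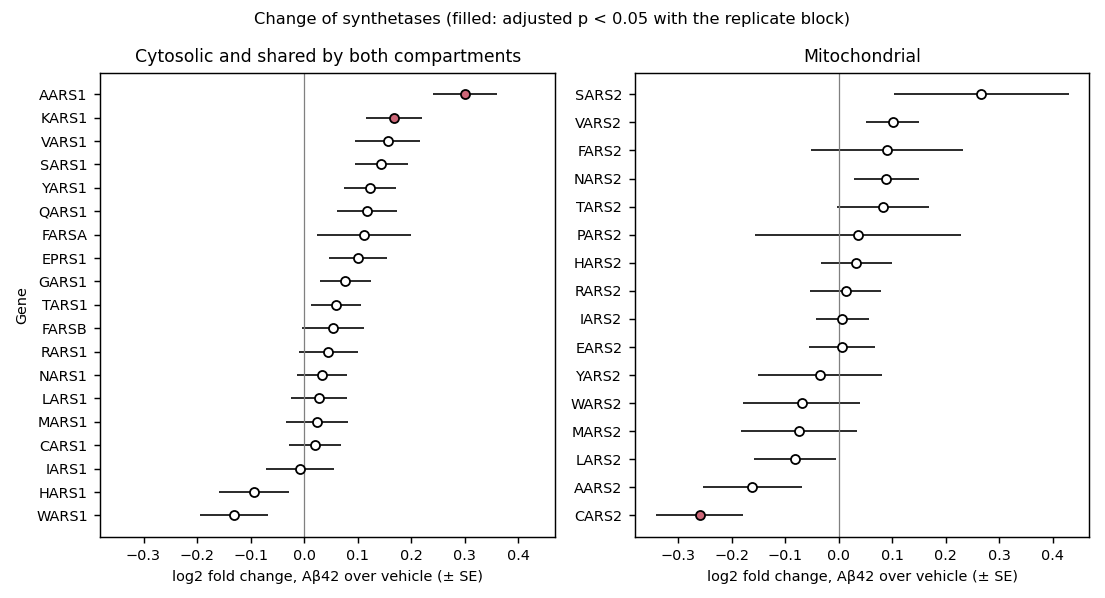
Log2 fold change of each synthetase reported by name, Aβ42 over vehicle, with its SE as a horizontal bar, both from the fit without the block. Filled points passed an adjusted p-value of 0.05 in the alternative fit with the replicate block. Only AARS1 and KARS1 on the left and CARS2 on the right are filled.

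The medians of both compartments were close to 0. The median log2 fold change was 0.06 for cytosolic enzymes (15 of 18 above 0) and 0.0069 for mitochondrial enzymes (10 of 17 above 0), while the median of all tested genes was 0.0032, with 7024 of 13842 above 0. The mitochondrial median was -0.04 on the log2(TPM + 1) scale, where the median of all genes shifted to -0.04 as well. It was also below 0 when any one of the Aβ42 libraries was left out and with the block and length correction together. The cytosolic median stayed above 0 in all 17 alternatives. No test of these medians was made, because the members were chosen with results of these data known.

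AARS1 (Entrez gene ID 16, chr16:70252298-70289506 in GRCh38.p14) had the smallest p-value of the family. It was at 169, 158 and 164 TPM in vehicle replicates 1 to 3 and at 194, 185 and 206 TPM in Aβ42 replicates 1 to 3. All 3 Aβ42 libraries lay above all 3 vehicle libraries, with Aβ42 replicate 2 nearest to vehicle. The log2 fold change was 0.30 ± 0.06 (SE), from 210.5 ± 9.95 to 259.2 ± 18.04 CPM (n = 3 each), with an edgeR adjusted p-value of 0.0684, and 70th by p-value among all genes tested. With the block the adjusted p-value was 0.00146, and over the 17 alternatives it ran from 0.00113 to 0.296, passing in 6.

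KARS1 (3735, chr16:75627724-75647665) makes lysyl-tRNA for the cytosol and for mitochondria. Its levels were 168, 162 and 162 TPM in vehicle and 182, 171 and 182 TPM with Aβ42, again with no overlap and with Aβ42 replicate 2 lowest of its group. The log2 fold change was 0.17 ± 0.05, with an edgeR adjusted p-value of 0.108, which was 0.0419 with the block and 0.00946 without Aβ42 replicate 2. GARS1, the other enzyme shared by both compartments, was at 0.08 ± 0.05.

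SARS1 (6301, chr1:109213893-109238182) was at 329, 317 and 334 TPM in vehicle and 344, 342 and 358 TPM with Aβ42. The groups did not overlap, and the log2 fold change was 0.14 ± 0.05 with an edgeR adjusted p-value of 0.126, or 0.0293 without Aβ42 replicate 2. YARS1 (8565, chr1:32775239-32817358) was at 198, 186 and 187 TPM in vehicle and 200.2, 199 and 203 TPM with Aβ42. Here vehicle replicate 1 came close to the Aβ42 libraries, and the log2 fold change was 0.12 ± 0.05 (adjusted p-value 0.165).

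VARS1 and QARS1 also had low p-values, and their groups overlapped. VARS1 (7407, chr6:31777518-31795752) was at 57.4, 54.2 and 55.6 TPM in vehicle and 61.4, 56.8 and 62.1 TPM with Aβ42, a log2 fold change of 0.16 ± 0.06 (edgeR adjusted p-value 0.156). Only Aβ42 replicate 2 lay below a vehicle library, and without it the adjusted p-value was 0.0114. QARS1, the glutaminyl enzyme (5859, chr3:49095932-49104757), was at 73.2, 71.3 and 70.6 TPM in vehicle and 78.3, 72.2 and 75.4 TPM with Aβ42 (0.12 ± 0.06, adjusted p-value 0.232).

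WARS1, the tryptophanyl enzyme and a gene known to be induced by interferon-γ, was the cytosolic member with the lowest log2 fold change, and it is named here after its values were seen. It was at 67.4, 65.3 and 64.2 TPM in vehicle and 54.1, 62.5 and 57.5 TPM with Aβ42. The groups did not overlap, although Aβ42 replicate 2 came close to vehicle, and the log2 fold change was -0.13 ± 0.06 (edgeR adjusted p-value 0.236). HARS1 (histidyl) was also below 0, at -0.09 ± 0.07.

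Further cytosolic members had log2 fold changes of 0.11 for FARSA, 0.05 for FARSB, 0.10 for EPRS1 (the fused glutamyl-prolyl enzyme), 0.06 for TARS1 (threonyl), 0.05 for RARS1 (arginyl), 0.03 for NARS1, 0.03 for LARS1 (leucyl), 0.02 for MARS1 (methionyl), 0.02 for CARS1 (cysteinyl) and -0.01 for IARS1 (isoleucyl). All of their groups overlapped in CPM. On the log2(TPM + 1) scale the values of RARS1, NARS1, LARS1, MARS1 and CARS1 were below 0.

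By structural family, the median log2 fold change was 0.08 for class II enzymes (18 genes) and 0.01 for class I enzymes (18 genes), beside 0.0032 over all genes. EPRS1 joins an enzyme of each class and was left out of both. Of the 8 synthetases of the multisynthetase complex, 7 were above 0 (median 0.07). Their scaffold AIMP1 went from 60.2 ± 4.10 to 68.5 ± 1.503 CPM (n = 3 each), with no overlap between groups. Its log2 fold change was 0.19 ± 0.06, with an edgeR adjusted p-value of 0.115 that was 0.0422 with the block. AIMP2 was at 0.01 ± 0.14 and EEF1E1 at -0.10 ± 0.14, and their groups overlapped.

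**Figure D3:**
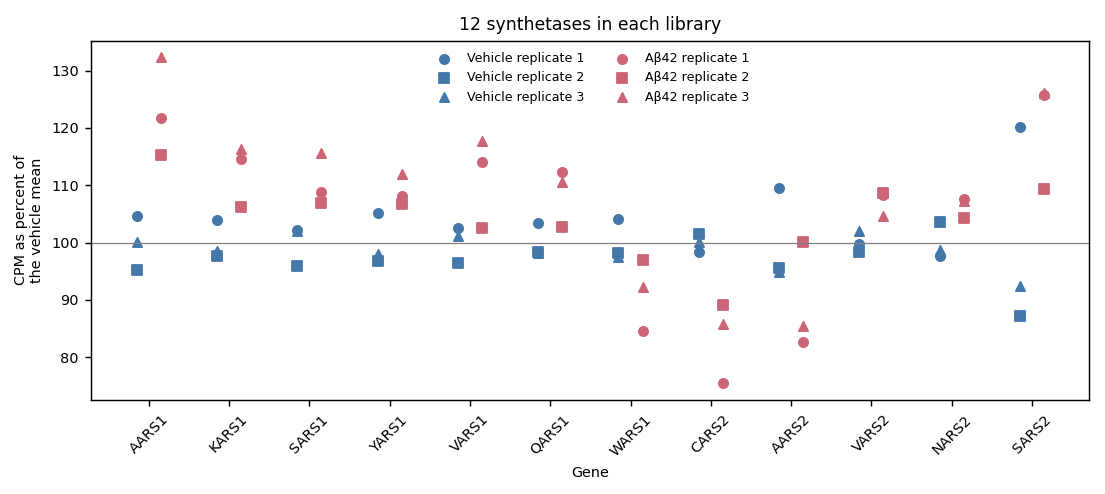
CPM of 12 synthetases in each library as a percent of the vehicle mean of that gene; vehicle is blue, Aβ42 is red and the symbol marks the replicate number. Aβ42 replicate 2 (red square) is the Aβ42 library nearest to vehicle in AARS1, KARS1, WARS1 and CARS2.

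CARS2 (79587, chr13:110641410-110713522) had the smallest p-value of the mitochondrial enzymes and was the only mitochondrial member with an unadjusted p-value under 0.05. Besides charging cysteine it is known to make cysteine persulfides. It was at 40.1, 42.9 and 42.7 TPM in vehicle and at 29.6, 35.7 and 33.7 TPM with Aβ42. Every Aβ42 library lay below every vehicle library, Aβ42 replicate 1 being lowest. The log2 fold change was -0.26 ± 0.08, with an edgeR adjusted p-value of 0.109 that was 0.0381 with the block. On the log2(TPM + 1) scale it was -0.34. The estimated counts of CARS2 and HARS1 were not whole in every library, so reads of these genes could have been divided with other features, and CARS2 overlaps ING1 by 900 bases in the RefSeq annotation.

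AARS2, the mitochondrial alanyl enzyme (57505, chr6:44298731-44313347), was at 17.5, 15.6 and 15.5 TPM in vehicle and 13.3, 16.4 and 13.5 TPM with Aβ42. Aβ42 replicate 2 lay within the vehicle range and the other 2 Aβ42 libraries below it. The log2 fold change was -0.16 ± 0.09 (edgeR adjusted p-value 0.307), and without Aβ42 replicate 2 it was -0.25 with an adjusted p-value of 0.0472.

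VARS2, the mitochondrial valyl enzyme (57176, chr6:30914238-30926459), was at 47.7, 48.1 and 49.6 TPM in vehicle and 51.2, 51.6 and 48.4 TPM with Aβ42 (log2 fold change 0.10 ± 0.05, edgeR adjusted p-value 0.247). NARS2 (79731, chr11:78435968-78574864) was at 47.4, 51.4 and 44.5 TPM in vehicle and 51.3, 50.7 and 56.1 TPM with Aβ42 (0.09 ± 0.06, adjusted p-value 0.387). SARS2 (54938, chr19:38915266-38930763), among the least abundant members, was at 8.92, 6.63 and 6.96 TPM in vehicle and 9.16, 8.03 and 9 TPM with Aβ42 (0.27 ± 0.16, adjusted p-value 0.342). In TPM the groups of all 3 genes overlapped, and the SE of SARS2 was among the widest in the family.

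Further mitochondrial enzymes had log2 fold changes of 0.09 for FARS2, 0.08 for TARS2, 0.04 for PARS2, 0.03 for HARS2, 0.01 for RARS2, 0.01 for IARS2, 0.01 for EARS2, -0.03 for YARS2, -0.07 for WARS2, -0.07 for MARS2 and -0.08 for LARS2. Of these, FARS2, PARS2, HARS2, RARS2, IARS2 and EARS2 were below 0 on the log2(TPM + 1) scale. PARS2 (SE 0.19) and FARS2 (SE 0.14) had wider SE than AARS1 (0.06), with 81 to 133 and 94 to 126 estimated counts per library. In PARS2 the Aβ42 replicates 1 to 3 held 81, 84 and 133.

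Each cytosolic enzyme was then set against its mitochondrial counterpart within a library, which gave 18 pairs. The ratio of cytosolic to mitochondrial TPM in vehicle ran from 1.04 (RARS1 over RARS2) to 44.2 (SARS1 over SARS2), with a median of 5.81. In CPM the ratio was higher with Aβ42 in 11 pairs and lower in 7, with a median change of 0.04 on the log2 scale. FARSB over FARS2 was lower in CPM (-0.03) but higher in TPM (0.07). In 3 of the 18 pairs the CPM ratios did not overlap between groups, all higher with Aβ42. Among single genes 27% of all tested did not overlap, and no background of ratios was computed.

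The alanyl pair had the largest of these differences. AARS1 over AARS2 stood at 9.66, 10.1 and 10.6 in vehicle libraries and at 14.6, 11.3 and 15.3 in Aβ42 libraries, a change of 0.46 on the log2 scale of CPM. The cysteinyl pair CARS1 over CARS2 stood at 2.53, 2.38 and 2.25 in vehicle and at 3.29, 2.82 and 2.85 with Aβ42 (0.28 on the same scale), with CARS1 itself at 0.02. EPRS1 over EARS2 stood at 7.56, 6.78 and 7.11 in vehicle and at 7.79, 7.25 and 8.07 with Aβ42 (0.10), and its TPM ratios overlapped. For these 3 pairs the exact permutation p-value was 0.1, two-sided, the smallest that 3 libraries against 3 can give, and 0.6 after Benjamini-Hochberg adjustment over the 18 pairs.

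The summed TPM of the 18 cytosolic genes over that of the 17 mitochondrial genes was 4.92, 4.62 and 4.67 in the vehicle libraries and 5.03, 4.94 and 5.01 in the Aβ42 libraries. The lowest Aβ42 library lay just above the highest vehicle library, and no such ratio of other gene sets was computed for comparison. In TPM the cytosolic sums alone overlapped (2304 to 2419 TPM in vehicle, 2395 to 2432 TPM with Aβ42). So did the mitochondrial sums alone (492.2 to 500.3 and 476.1 to 492.8 TPM). In CPM the cytosolic sums did not overlap (2411 to 2597 CPM in vehicle, 2602 to 2686 CPM with Aβ42). The mitochondrial sums overlapped on that scale too (516.4 to 528.8 and 519.1 to 528 CPM). These sums were not tested.

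**Figure D4:**
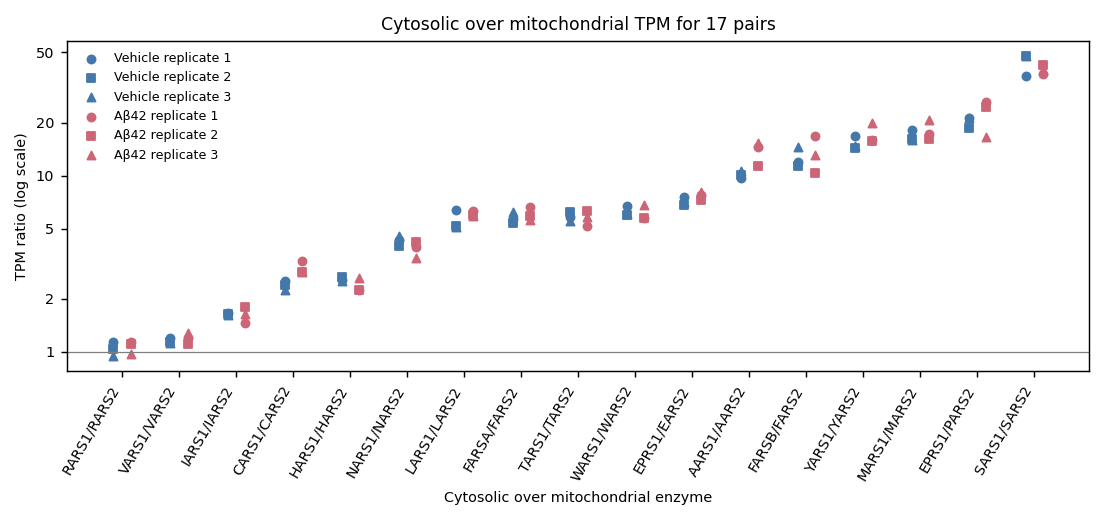
Ratio of cytosolic to mitochondrial TPM (log scale) in each library for 17 of the 18 pairs, ordered by the vehicle mean; vehicle is blue, Aβ42 is red and the symbol marks the replicate number. Most groups overlap, and AARS1 over AARS2 and CARS1 over CARS2 are higher in all 3 Aβ42 libraries.

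Promoter sequences were examined because ATF4 binds, with C/EBP partners, to a composite element whose core reads TGATGNAA. RefSeq promoters (GRCh38.p14, 250 bases before to 50 after the start site) were matched for 30 of the 37 members. Those not matched included VARS1, VARS2, AARS2, LARS1 and YARS1. The start sites used for CARS2 and FARS2 lie well inside the annotated genes. The CARS2 window is chr13:110706466-110706765, on the minus strand of a gene that reaches to 110713522. The FARS2 window is chr6:5260757-5261056, on the plus strand of a gene that starts at 5249934. Sequence at the outer 5′ ends of both genes was not searched. Searched on both strands, the core was found in 6 of 14 cytosolic promoters, 0 of 2 shared ones and 1 of 14 mitochondrial ones, against 3.67% of the 27305 promoters in the table and 1.68% of those of tested genes. All 6 cytosolic matches read TGATGCAA, the form of the core with C at the open position, which 0.923% of all promoters hold. The 7 matches are shown as 30 bases each, 5′ to 3′ on the strand of the gene, with the core in capitals (TTGCATCA is the same core on the other strand).
AARS1, chr16:70289675-70289704, minus strand: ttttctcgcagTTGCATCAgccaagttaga
CARS1, chr11:3057407-3057436, minus strand: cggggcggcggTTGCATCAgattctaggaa
IARS1, chr9:92293692-92293721, minus strand: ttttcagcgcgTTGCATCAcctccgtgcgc
MARS1, chr12:57488053-57488082, plus strand: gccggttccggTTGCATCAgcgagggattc
NARS1, chr18:57621804-57621833, minus strand: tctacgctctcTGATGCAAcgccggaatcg
TARS1, chr5:33440956-33440985, plus strand: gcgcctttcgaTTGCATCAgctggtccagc
YARS2, chr12:32756076-32756105, minus strand: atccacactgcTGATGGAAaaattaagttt

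In CARS1, IARS1, MARS1, NARS1 and TARS1 the core began between 13 bases before and 14 bases after the start site, whereas in AARS1 it began 187 bases and in YARS2 197 bases before it. The 250 bases upstream of AARS1 (chr16:70289507-70289756, minus strand) are given to show that position, with the core in capitals.
AARS1 upstream: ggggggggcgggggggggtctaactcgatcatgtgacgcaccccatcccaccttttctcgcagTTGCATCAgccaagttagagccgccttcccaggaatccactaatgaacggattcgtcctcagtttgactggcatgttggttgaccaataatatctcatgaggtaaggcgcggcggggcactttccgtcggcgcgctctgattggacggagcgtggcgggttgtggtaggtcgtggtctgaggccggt

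The members that carry the core differed among themselves. The 6 cytosolic carriers had a median log2 fold change of 0.03, with AARS1 at 0.30 and the other 5 between -0.01 and 0.06. The 10 cytosolic or shared members whose promoter lacks it had a median of 0.09, and the 4 with no matched promoter one of 0.14. Over all tested genes with a matched promoter, the 54 with TGATGCAA had a median of 0.04, and 27.8% of them had an unadjusted p-value under 0.05, against 23.8% of the 11253 without it. A match describes letters and is not evidence of binding.

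A second arrangement concerns HARS1 and HARS2, which lie head to head on chromosome 5 with start sites 85 bases apart. The 84 bases between the starts (chr5:140691371-140691454, plus strand, HARS1 reading to the left and HARS2 to the right) are shown because both genes share them, with 2 matches to the ETS-factor core CCGGAAG, on opposite strands, in capitals.
HARS1-HARS2: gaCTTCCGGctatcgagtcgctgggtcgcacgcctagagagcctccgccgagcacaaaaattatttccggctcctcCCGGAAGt
The CCGGAAG core was found in 14 of the 30 member promoters, against 10.7% of all promoters and 18.4% of those of tested genes. HARS1 was at 109, 110.1 and 101 TPM in vehicle and 89.7, 98.3 and 102 TPM with Aβ42, and HARS2 at 43.0, 41.3 and 39.9 TPM in vehicle and 40.1, 43.6 and 39.0 TPM with Aβ42. Both sets of groups overlapped, and the ratio of HARS1 to HARS2 was 2.53 to 2.67 in vehicle and 2.24 to 2.62 with Aβ42. The palindromic core of NRF1, a factor known for driving nuclear genes of mitochondrial proteins, was found in 1 member promoter (MARS2), against 1.36% of all promoters.

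Genes that sense amino acid supply or belong to the ATF4 axis were mostly higher with Aβ42 (16 of 18). Of these 18 genes, 7 had an unadjusted p-value under 0.05, all higher (background 12.4% higher), and the median log2 fold change was 0.18. None passed over all genes, and with the block 5 passed, all higher (background 7.12%). ATF3 went from 29.1 ± 2.31 to 37.6 ± 2.27 CPM (0.37 ± 0.08, edgeR adjusted p-value 0.0691, 0.00353 with the block). DDIT3, which encodes the stress factor CHOP, went from 21.7 ± 2.57 to 32.2 ± 5.49 CPM (0.57 ± 0.13, 0.0734, 0.000447 with the block). DDIT3 overlaps the synthetase gene MARS1 by 65 bases in the RefSeq annotation, and MARS1 was at 0.02 ± 0.06. The 12 synthetases listed as ATF4-responsive had a median of 0.05. Of these, 3 (AARS1, SARS1 and YARS1) had an unadjusted p-value under 0.05, all higher. That is 25% of the list, against 23.9% of all genes in either direction and 12.4% higher. The 8 other cytosolic or shared synthetases had a median of 0.11, also with 3 (37.5%), all higher, KARS1 and VARS1 among them.

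Genes of amino acid supply lay in both directions. Of 18 genes of amino acid synthesis 3 were higher and 1 lower at an unadjusted p-value under 0.05 (median -0.01), which is 22.2% of the list against 23.9% of all genes. With the block 1 of the 18 passed, 5.56% against 14.2%. SHMT2, the mitochondrial enzyme that turns serine into glycine, was at 0.24 ± 0.07 (edgeR adjusted p-value 0.108, 0.0135 with the block), and GLUL, glutamine synthetase, at 0.12 ± 0.05 (0.143). Of 16 transporters 2 were higher and 6 lower (background 11.5% lower, median -0.14), and with the block 1 passed as higher and 5 as lower (background 7.05% lower). The glutamine carrier SLC38A1 was at -0.31 ± 0.07 (edgeR adjusted p-value 0.0734, 0.000941 with the block), and the cationic amino acid exchanger SLC7A6 at -0.28 ± 0.07 (0.0734, 0.00543 with the block).

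Of the 11 accessory genes of tRNA charging, 2 were higher at an unadjusted p-value under 0.05, 18.2% of the list against 12.4% of all genes higher and 23.9% in either direction. They were XPOT, the exporter of tRNA from the nucleus (0.14 ± 0.05, edgeR adjusted p-value 0.116), and PSTK, a kinase for selenocysteine tRNA (0.55 ± 0.21, 0.152). With the block none of the 11 passed, where 14.2% of all genes did. Among the 7 elongation factors of the cytosol and mitochondria that bring charged tRNA to the ribosome or serve those that do, EEF1A1 (0.19 ± 0.05, adjusted p-value 0.0889) and EEF1G (0.19 ± 0.05, 0.0907) passed with the block, at 0.0183 and 0.018, which is 28.6% of the list against 14.2% of all genes.

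**Figure D5:**
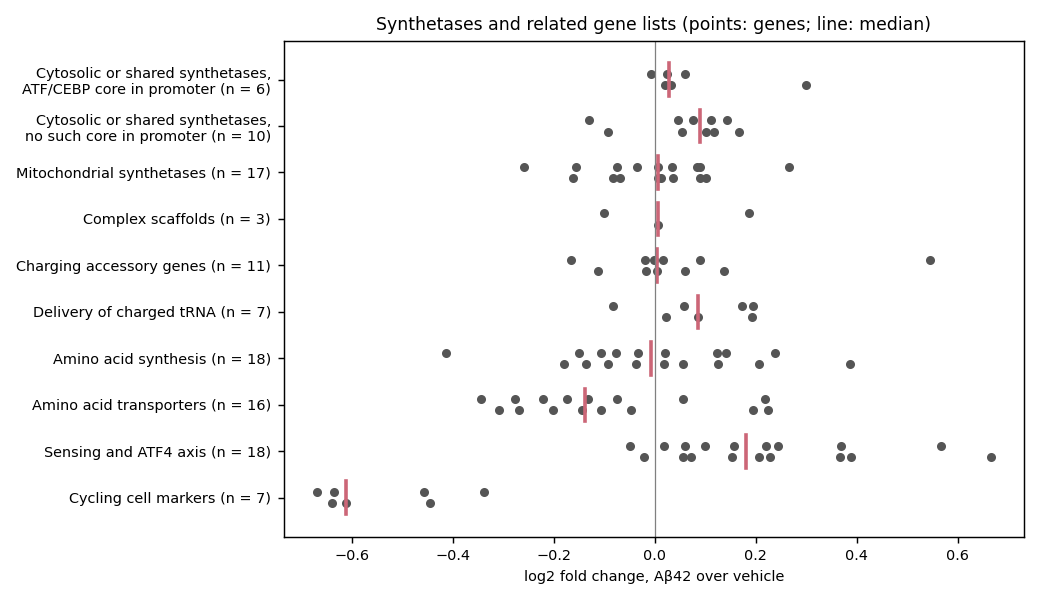
Log2 fold change, Aβ42 over vehicle, of each gene in the synthetase groups and related lists, with the median as a red line; the 4 cytosolic members with no matched promoter are not drawn. Synthetase medians lie near 0, the ATF4 axis has its median at 0.18 and the cycling cell markers have theirs at -0.61.

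Markers of some cell types differed between the groups. All 7 cycling cell markers had an unadjusted p-value under 0.05 and were lower (median -0.61, background 11.5% lower), with summed levels of 713.9 to 861.3 CPM in vehicle and 465.2 to 661.5 CPM with Aβ42, and all 7 passed with the block (background 7.05% lower). Of 9 neuron markers 4 were lower at that level, 44.4% of the list (median -0.14, summed 6550 to 7033 against 6163 to 6365 CPM), and 3 passed as lower with the block, 33.3% of the list. Of 6 radial glia markers 1 was higher and 2 were lower, against 12.4% and 11.5% of all genes (summed 2339 to 2499 against 2554 to 2687 CPM). The 2 that passed with the block were 33.3% of the list, against 14.2% of all genes. They were HOPX (edgeR adjusted p-value 0.000503) and NES (0.0208), both lower, although the sum was higher. Of 6 choroid plexus markers none had an unadjusted p-value under 0.05 (summed 446.4 to 963.9 against 388.7 to 896.2 CPM). With the block 3 of the 6 had one, as did 4060 of all 13842 genes tested. CLIC6 (edgeR adjusted p-value 0.000309) and OTX2 (0.00612) passed as lower with the block, 33.3% of the list against 14.2% of all genes. The part of these differences in the values of AARS1, KARS1 and CARS2 was not tested.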

How the data were processed

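RNA of 6 libraries was measured, 3 per group. The submitters' processing notes name FastQC, STAR 2.7.11b, featureCounts 2.0.6 and GRCh38, without roles. Annotation, strand setting and treatment of shared reads are not given in the sources used here. Per the file headers the authors deposited read counts and TPM for every gene in each library. Only 86.9% to 87.5% of the counts were whole, so these deposited values were treated as estimated counts and rounded. Reads of overlapping genes, antisense genes or pseudogenes may have been divided (22 members overlap another RefSeq gene, and 17 have a pseudogene named after them or their pair).

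Genes were kept by filterByExpr of edgeR 4.0.16 (R 4.3.3), scaled by TMM and compared by its quasi-likelihood test (robust, two-sided, no block). Benjamini-Hochberg adjustment ran over 13842 genes, and 0.05 was the threshold. The fit was tested on simulated data. SE came from each log2 fold change and its F statistic. Alternatives used DESeq2 1.42.0, limma 3.58.1, log2(TPM + 1) and log2(TPM + 0.1), other scaling and filters, the replicate block, a loess correction for transcript length, and each library left out. The CPM ranges of the groups were compared for overlap.

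Members and gene lists were chosen with earlier results of these data known. By the naming rule members are named, and full values go to the 7 cytosolic or shared and 5 mitochondrial members with the smallest p-value. LHX2, EMX1 and the markers named with the block were named after their values were seen. Some genes are counted in the totals but not reported by name here. In each related list the 2 genes with the smallest p-value are named. Libraries were not duplicates (chi-square per gene 3.16 to 21.1 between pairs, where sampling alone gives 1). Deviations from group means correlated between same-numbered libraries at 0.181, 0.388 and 0.129 for numbers 1 to 3. The labels do not pair libraries, and the main fit has no block. Because these values all exceed 0.1, equal numbers were treated as pairs in the alternative with the block. That choice came from the same data that were then tested. Vehicle replicate 3 with Aβ42 replicate 1 (0.177) and vehicle replicate 1 with Aβ42 replicate 3 (0.154) gave similar values, so only number 2 stands apart.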

Additional observations from a re-analysis of the deposited data

How the results depend on the processing

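Among all 17 alternatives, 24 of the 37 members kept the sign of their log2 fold change. The other 13 had values of at most 0.09 in size in the main fit, and their reversed values reached 0.229 in size. No synthetase was called under RLE scaling, limma-voom, the length correction, both TPM scales or a floor of 10 counts on the mean. With no filter on low counts 1 synthetase passed (360 genes, 3 in the related lists), with DESeq2 1 (804 genes, 9 in the lists), and with quality weights 5 (2543 genes, 19 in the lists). With the replicate block 3 passed (1962 genes, 15 in the lists), and 2 when the replicate block was joined to the length correction (2017 genes, 17 in the lists). Leaving out each library gave 0 to 6 synthetases called, 0 to 3224 genes over the whole table, 0 to 23 in the lists, 3 to 11 synthetases at an unadjusted p-value under 0.05 and 8 to 21 without overlap. The difference between the cytosolic and mitochondrial medians, 0.05, ran from 0.03 to 0.08 without single libraries. The mitochondrial median was -0.038 for log2(TPM + 1) and -0.039 for log2(TPM + 0.1), where the median of all genes shifted by -0.0401 and -0.0434. The block changed no other call on a member. The cause of these changes was not tested.

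Reversed log2 fold changes were as follows. On the log2(TPM + 1) scale they were -0.027 for CARS1, -0.037 for EARS2, -0.013 for FARS2, -0.017 for HARS2, -0.038 for IARS2, -0.015 for LARS1, -0.021 for MARS1, -0.014 for NARS1, -0.039 for PARS2, -0.0023 for RARS1 and -0.035 for RARS2. With a pseudocount of 0.1 they were -0.027, -0.039, -0.015, -0.017, -0.038, -0.015, -0.022, -0.014, -0.048, -0.0024 and -0.035 in the same order. With limma-voom PARS2 was at -8.3e-05. The length correction gave -0.0036 for CARS1, 0.0043 for IARS1 and -0.016 for RARS2, and with the replicate block as well -0.0033, 0.0024 and -0.016, with PARS2 at -0.0098. Leaving out each library gave -0.0061 to 0.041 for CARS1, -0.0137 to 0.0383 for EARS2, -0.00205 to 0.188 for FARS2, -0.00771 to 0.0721 for HARS2, -0.0789 to 0.0414 for IARS1, -0.0183 to 0.0275 for IARS2, -0.00376 to 0.0694 for LARS1, -0.0103 to 0.0778 for MARS1, -0.229 to 0.157 for PARS2, -0.0519 to 0.0529 for RARS2 and -0.0797 to 0.046 for YARS2. The least counted members, PARS2, SARS2 and FARS2, had wide SE (0.19, 0.16 and 0.14), and the part of depth in these was not tested.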
